A study of Sus scrofa with 16 samples.

Results

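Kupffer cell marker genes were followed in the livers of 16 pigs fed 3 different fats. The genes were the ones whose pig symbol was C1QA, C1QB, C1QC, CD163, MARCO, VSIG4, CLEC4F, CD5L, CSF1R or CD68, and 9 of these 10 symbols matched an identifier among the 25880 genes counted in every pig. CD5L, a protein secreted by macrophages, was not matched by its symbol and was not analysed here. CSF1R, the receptor for the growth factors that keep macrophages alive, matched but held 7 reads over all 16 pigs, with at most 2 reads in a pig and none in 10 pigs. The other 8 genes had a mean of 26.7 to 549 reads per pig and entered every test, while CSF1R was left out by the filter on low counts.

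Group R received rapeseed oil (5 pigs, 3 gilts and 2 barrows), group B beef tallow (5 pigs, 2 gilts and 3 barrows) and group C coconut oil (6 pigs, 3 gilts and 3 barrows). Gilts are young females and barrows are castrated males, and the labels give the sex of each pig as female or male. All pigs were of one cross, with Polish Landrace x Polish Large White dams and Duroc x Pietrain sires, were penned singly and were fattened from about 60 to 118 kg, and the diets were alike in energy and protein. There was no group without added fat, so each diet is compared only with the other diets, and the pigs' age is not given in the labels.

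Kupffer cells are the macrophages that live in the sinusoids of the liver, where they take up bacteria, dying cells and old red blood cells from portal blood. They produce much of the C1q that starts the classical complement pathway, and they carry receptors for hemoglobin bound to haptoglobin (CD163), for complement fragments on particles (VSIG4) and for bacterial and modified lipid surfaces (MARCO). Most liver RNA comes from hepatocytes, so these genes are a small share of a whole liver library, and a lower level can mean fewer macrophages or less RNA per macrophage, which bulk libraries cannot tell apart.

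Sequencing covered the 3′ end of each mRNA, and the reads assigned to genes numbered 705669 in the smallest library and 1767671 in the largest (median 1018321.5). The liver label fitted its markers: the 10 hepatocyte markers summed to between 80242 and 203896 CPM in each pig, although SERPINA1 had a mean below 1 read. CPM are reads scaled to a common library size. Of the markers of other cells, 6 of 8 B cell genes had a mean below 1 read, and the 6 adipocyte genes summed to between 4.13 and 23.1 CPM. Other lists were higher. The 6 matched erythroid genes summed to between 512 and 4767 CPM, and the 12 stellate and fibroblast genes to between 360 and 911 CPM. Beef tallow pig 3 stood apart, with the highest level of all 16 pigs for 5 of the 8 marker genes, and 33.2% of its reads had several alignments, against a range of 15.4% to 38.1% over all pigs. The lowest hepatocyte sum, 80242 CPM, was also that of beef tallow pig 3. Its level of the hepatocyte marker ALB was the lowest of all pigs, at 26640 CPM against a mean of 87249. Rapeseed oil pig 5 was the lowest of all pigs for 6 of the 8 genes. Values without these pigs are given for part of the results.

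The 3 chains of C1q lie side by side on chromosome 6 of Sscrofa11.1, with C1QA (ENSSSCG00000003524) from 80586259 to 80589213, C1QC (ENSSSCG00000038706) from 80592591 to 80597464 and C1QB (ENSSSCG00000033512) from 80601680 to 80606076. The gaps between them were 3377 and 4215 bases, and no other RefSeq gene lay in the 19818 bases that hold all 3. The remaining members were spread over the genome, with CD163 (ENSSSCG00000033146) on chromosome 5 from 63300200 to 63334497, CD68 (ENSSSCG00000017956) on chromosome 12 from 52874754 to 52877256, CLEC4F (ENSSSCG00000023258) on chromosome 3 from 71683898 to 71696357, and MARCO (ENSSSCG00000015716) on chromosome 15 from 24502935 to 24541286. VSIG4 (ENSSSCG00000035170) lay on the X chromosome, from 52175601 to 52198635, and CSF1R (ENSSSCG00000014441) on chromosome 2, from 151102138 to 151130311.

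CD163, the scavenger receptor that clears hemoglobin, was the 1 marker gene that differed between diets after adjustment, and it was higher in group B than in group R. Its normalized counts in group R were 97.7, 123.8, 110.1, 128.6 and 83.6 CPM. In group B they were 219, 161, 187, 177 and 194 CPM. In group C they ran from 99.8 to 167 CPM, with a median of 130.4. Every pig on beef tallow lay above every pig on rapeseed oil, while group C lay across the range between them and overlapped both. The overlap with group B came from coconut oil pig 2, at 167 CPM, and the next pig of group C was at 149 CPM. The mean CPM of groups R, B and C were 109 ± 18.6, 188 ± 21.7 and 133 ± 23.5 (SD, n = 5, 5 and 6). CD163 was thus 1.73-fold higher with beef tallow than with rapeseed oil, a log2 fold change of 0.79 with a standard error of 0.17 (edgeR quasi-likelihood test, Benjamini-Hochberg adjusted p = 0.0414).

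The call for CD163 stood near the threshold. It was lost with counts thinned to the smallest library (edgeR adjusted p = 0.0653) and with the replicate number as a block (edgeR adjusted p = 0.0887). Replicate numbers did not pair the pigs, as given below. The call was kept in only 2 of the 10 fits that left out a pig, namely those without rapeseed oil pig 4 or beef tallow pig 3. Its size moved little, from 0.71 to 0.86 on the log2 scale over those 10 fits, and without beef tallow pig 3 it was 0.79 (adjusted p = 0.0285) and without rapeseed oil pig 5 it was 0.71 (adjusted p = 0.0994). The coconut oil pigs had a log2 fold change of 0.29 against group R (standard error 0.17, edgeR adjusted p = 0.477) and of -0.49 against group B (standard error 0.17, edgeR adjusted p = 0.299), and neither passed. These 3 comparisons share their pigs in pairs and are not independent of each other.

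**Figure D1:**
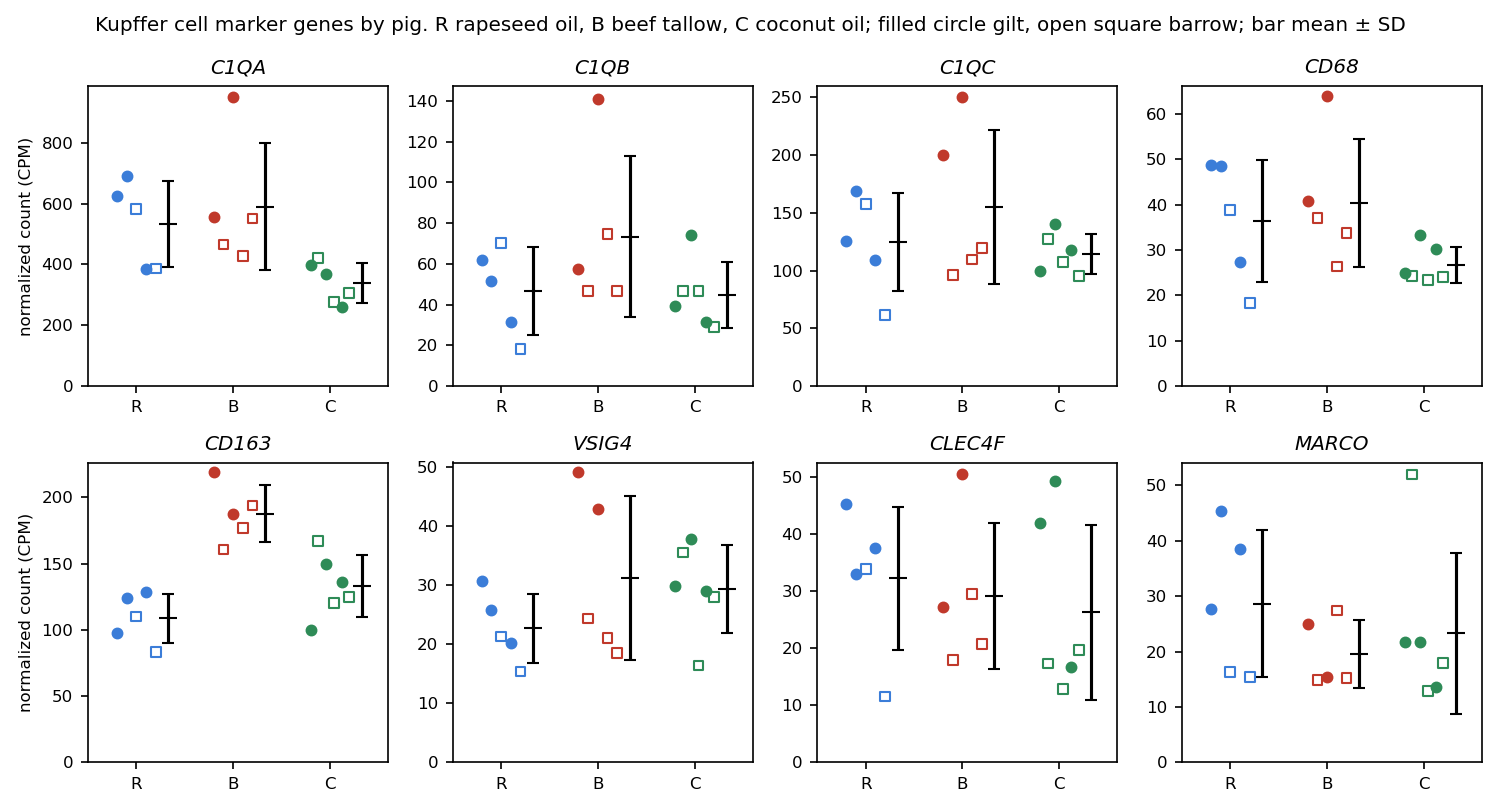
Normalized counts (CPM, linear axis from 0) of the 8 tested marker genes, each point a pig, by diet, with filled circles for gilts, open squares for barrows and bars for the mean ± SD. CD163 is the panel in which all 5 beef tallow pigs, from 161 to 219 CPM, lie above all 5 rapeseed oil pigs, from 83.6 to 128.6 CPM; beef tallow pig 3 is the highest point for C1QA, C1QB, C1QC, CD68 and CLEC4F.

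C1QA, the A chain of C1q, showed the other large differences, with lower values in group C, but none passed the adjusted threshold. The normalized counts were 624, 689, 583, 384 and 386 CPM in group R and 554, 465, 952, 427 and 551 CPM in group B. Group C ran from 259.6 to 421 CPM, with a median of 338. Every pig on coconut oil lay below every pig on beef tallow, and the coconut oil range overlapped the 2 lowest rapeseed oil pigs. The log2 fold change was -0.80 for group C against B (standard error 0.22, unadjusted p = 0.00183 and adjusted p = 0.210 by edgeR) and -0.65 for group C against R (standard error 0.19, unadjusted p = 0.00247 and adjusted p = 0.145 by edgeR). With DESeq2 in place of edgeR, C1QA passed between groups C and B (adjusted p = 0.0434), while over all alternatives that kept every pig its adjusted p ran from 0.0434 to 0.537. Groups B and R differed by 0.15 (standard error 0.24), and this small difference turned to -0.10 without beef tallow pig 3.

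The other 2 chains of C1q did not pass in any pair of diets, and their differences had another pattern from those of C1QA. C1QB was at 62.0, 51.6, 70.1, 31.4 and 18.2 CPM in group R and at 57.3, 46.5, 141, 74.8 and 46.8 CPM in group B, and it ran from 29.1 to 73.9 CPM in group C (median 43.1). Only beef tallow pig 3 and 1 further pig of group B lay above the highest pigs of groups R and C, so the groups overlapped in all 3 pairs. Its log2 fold change for group B against R was 0.67 with a standard error of 0.36 (edgeR adjusted p = 0.388), and it was 0.27 without beef tallow pig 3. For group C against B it was -0.76 (standard error 0.31), close to the value of C1QA, and for group C against R it was -0.10 (standard error 0.30). C1QC was at 125.4, 169, 158, 109 and 61.5 CPM in group R, at 199.8, 96.2, 250.5, 109.6 and 119.7 CPM in group B, and between 95.2 and 140.6 CPM in group C (median 112.5). The spread of C1QC was wide in groups R and B and narrow in group C, with coefficients of variation of 34.3%, 43.1% and 15.1%.

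As a description chosen after the values were seen, and with no test, the make-up of the summed C1q reads also differed by diet. C1QA made up 76.1% ± 4.27 (SD, n = 5) of the summed normalized counts of the 3 chains with rapeseed oil, 72.5% ± 3.94 (n = 5) with beef tallow and 67.8% ± 4.71 (n = 6) with coconut oil. C1QC made up 17.5% ± 3.12, 18.7% ± 3.46 and 23.3% ± 3.48 in the same order, and C1QB 6.37% ± 1.83, 8.80% ± 2.46 and 8.85% ± 2.34. These are shares of 3′ reads and not of protein chains, which join in equal numbers in C1q. The ranges of the C1QA share overlapped between diets, from 71.9% to 82.9% in group R, 68.3% to 76.8% in group B and 63.3% to 74.1% in group C. The ratio of CD163 to C1QA was 0.215 ± 0.0703 with rapeseed oil, 0.341 ± 0.0858 with beef tallow and 0.403 ± 0.0882 with coconut oil. Its ranges overlapped too, from 0.157 to 0.335, from 0.197 to 0.415 and from 0.251 to 0.524 in the same order.

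CD68, a glycoprotein of macrophage lysosomes, followed the pattern of C1QA at a lower level. It was at 48.9, 48.5, 38.8, 27.3 and 18.2 CPM in group R, at 40.7, 37.0, 63.9, 26.3 and 33.7 CPM in group B, and between 23.4 and 33.3 CPM in group C (median 24.6). The coconut oil pigs were close together at the low end of both other groups. The log2 fold change for group C against B was -0.62 (standard error 0.23, unadjusted p = 0.0160 and adjusted p = 0.329 by edgeR), and it was -0.37 without beef tallow pig 3. For group C against R it was -0.46 (standard error 0.24, edgeR adjusted p = 0.426).

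VSIG4, a complement receptor of resident macrophages, ran from 15.4 to 30.6 CPM in group R (median 21.3), from 18.5 to 49 in group B (median 24.3) and from 16.4 to 37.7 in group C (median 29.4). The 2 highest of the 16 pigs were the 2 gilts of group B, at 49 and 42.8 CPM, and the 3 barrows of that group were at 24.3, 21.1 and 18.5 CPM. The log2 fold changes were 0.48 for group B against R (standard error 0.30) and 0.36 for group C against R (standard error 0.23), with edgeR adjusted p-values of 0.471 and 0.554. Without beef tallow pig 1, the first of those gilts, the value for group B against R was 0.26, and without rapeseed oil pig 5 it was 0.37.

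CLEC4F, a lectin of Kupffer cells that binds galactose-bearing sugars, ran from 11.5 to 45.2 CPM in group R, from 18.0 to 50.5 in group B and from 12.9 to 49.3 in group C. Its groups overlapped almost wholly, and the log2 fold change of group B against R, -0.12, was smaller than its standard error of 0.33. MARCO, the scavenger receptor with a collagen-like stem, ran from 15.4 to 45.4 CPM in group R, from 14.8 to 27.4 in group B and from 12.9 to 51.9 in group C. The log2 fold change of MARCO for group B against R was -0.55 (standard error 0.32, edgeR adjusted p = 0.424), the reverse direction to CD163, although both encode scavenger receptors. In group C the highest value, 51.9 CPM, belonged to coconut oil pig 2 and the next was 21.7 CPM, and without that pig the log2 fold change against group B went from 0.25 to -0.15.

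Counted over the genes, 1 of the 8 tested members passed for group B against R, while 1.11% of the 6318 genes tested did so. CD163 was also the one member at an unadjusted p below 0.05, where 8.33% of all genes were higher at that p. It was also the one member whose groups did not overlap, against 2.64% of all genes that did not overlap in that direction. Of the 8, 6 were higher in group B (51.5% of all genes), and their median log2 fold change was 0.25, where the median over all genes tested was 0.01. Without rapeseed oil pig 5, the log2 fold changes of C1QA, C1QB, C1QC and CD68 for group B against R were 0.058, 0.47, 0.16 and 0.0022, that of CLEC4F was -0.33 and that of MARCO -0.71.

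For group C against R, no member passed by edgeR or by DESeq2, each run after the same filter on low counts. By edgeR 0.138% of 6528 genes passed, and 1 member, C1QA, had an unadjusted p below 0.05 (13.0% of all genes). The paper, from its own DESeq2 comparisons, names C1QA among the genes lower with coconut oil than with rapeseed oil. It also names C1QA among defense response genes lower with coconut oil than with beef tallow. Of the 8 members, 6 were lower in group C (50.1% of all genes), with a median log2 fold change of -0.21. Without rapeseed oil pig 5, C1QA was at -0.75, CD68 at -0.63, CLEC4F at -0.56, C1QB at -0.31 and C1QC at -0.29, and none passed. For group C against B, no member passed by edgeR, while 0.0587% of 6812 genes did, and 1, C1QA, passed by DESeq2. The unadjusted p was below 0.05 for 4 members, C1QA, CD163, CD68 and C1QB, all lower in group C, where 6.21% of all genes were lower at that p. Their edgeR log2 fold changes were -0.80, -0.49, -0.62 and -0.76, and C1QA was the one member not overlapping (0.881% of all genes did not overlap in that direction). Of the 8 members 7 were lower in group C (50.4% of all genes), with MARCO the exception. The median over the 8 members was -0.47, against a median of all genes of -0.0045. The members varied together over the pigs, as given below, so counts of members, here and between the sexes, are not counts of independent genes. Without beef tallow pig 3, the log2 fold changes of the same 4 genes were -0.55, -0.49, -0.37 and -0.37, so the value for CD163 did not rest on that pig.

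**Figure D2:**
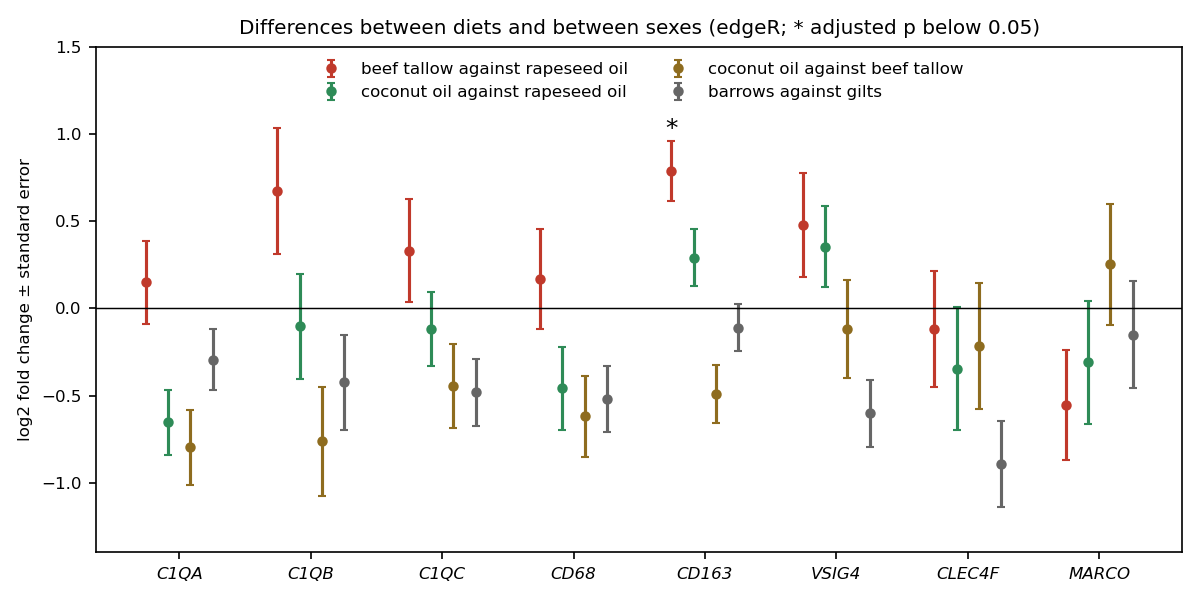
Log2 fold changes (points) ± standard error (bars) from edgeR for the 8 tested marker genes in the 3 pairs of diets and between the sexes, with the second group named as the reference. The star marks CD163 for beef tallow against rapeseed oil, at 0.79; all 8 points for barrows against gilts lie below 0.

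In the test of any difference among the 3 diets, no member passed by edgeR, where 0.711% of 6891 genes passed, and the smallest adjusted p-values were 0.0513 for CD163 and 0.114 for C1QA. Both of these had an unadjusted p below 0.05 (15.9% of all genes), and both passed by DESeq2, with adjusted p-values of 0.00211 and 0.0365.

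All 8 members were lower in barrows than in gilts when diet was held as a covariate, although no member passed by edgeR or DESeq2. Over all genes 50.2% were lower in barrows, and 0.0786% of 6365 genes passed by edgeR. Of the wider list of macrophage genes described below, 12 of 16 tested were lower in barrows and 4 higher (median log2 fold change -0.24). Of the ligands and partners of the members, 9 of 11 were lower and 2 higher (median -0.10). The monocyte gene CX3CR1 was at -0.61 (edgeR adjusted p = 0.914), and 4 of 8 endothelial markers were lower. The largest difference was that of CLEC4F, which ran from 16.6 to 50.5 CPM with a median of 39.7 in the 8 gilts and from 11.5 to 33.8 CPM with a median of 18.8 in the 8 barrows. The sexes overlapped, and the log2 fold change was -0.89 (standard error 0.25, unadjusted p = 0.00172 and adjusted p = 0.914 by edgeR). With no filter on low counts, the adjusted p of CLEC4F was 0.0198 at a log2 fold change of -0.88. Without beef tallow pig 3, a gilt, it was -0.78, and without rapeseed oil pig 5, a barrow, it was -0.77, while MARCO went from -0.15 to 0.0088.

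The other members with an unadjusted p below 0.05 between the sexes were VSIG4 at -0.60 (standard error 0.19), CD68 at -0.52 (standard error 0.19) and C1QC at -0.48 (standard error 0.19), so 4 of 8 members were lower at that p, against 2.95% of all genes. VSIG4 lies on the X chromosome, of which gilts carry a pair and barrows a single copy, while CLEC4F, CD68 and C1QC lie on chromosomes 3, 12 and 6. Any part of the copy number in the difference of VSIG4 was not tested. CD163 was nearly level, at 143 ± 42 CPM in gilts and 142 ± 37.9 in barrows (SD, n = 8 each), with a log2 fold change of -0.11 and a standard error of 0.13. The median over the 8 members was -0.45. The 2 sexes were unequally spread over groups R and B, and with sex as a covariate the log2 fold change of CD163 for group B against R was 0.83 (edgeR adjusted p = 0.0291). No member had an interaction of diet and sex, either adjusted (0.0% of all genes by edgeR, and no member by DESeq2) or at an unadjusted p below 0.05 (3.41% of all genes).

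Across the 16 pigs the 8 members varied together to very different degrees. On log2 CPM all 28 pairs had a positive Pearson r, with a median of 0.51 and a range from 0.04 to 0.83, while the median r of a member with all 6657 genes of at least 10 reads was -0.02. By permutation of the pigs, 10 pairs passed an adjusted p of 0.05 over the 28 pairs for r, and 9 for Spearman's rho. With the diet means removed, 15 pairs passed and the median r was 0.61, so the co-variation was present among pigs of the same diet. The median was 0.43 with the means of diet and sex removed, and also 0.43 without beef tallow pig 3, where 3 pairs passed.

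The tightest group held the C1q chains and CD68. C1QC and CD68 had r = 0.83 and rho = 0.76 (n = 16, permutation p = 0.00011 and 0.00114, adjusted 0.00168 and 0.0106), and r was 0.64 without beef tallow pig 3 and rapeseed oil pig 5, the 2 pigs farthest from the median of C1QC. C1QA and CD68 had r = 0.82 and rho = 0.80 (permutation p = 0.00012 and 0.00037, adjusted 0.00168 and 0.0104), and r was 0.82 also without beef tallow pig 3 and coconut oil pig 5. The neighbours C1QB and C1QC had r = 0.81 and rho = 0.75 (permutation p = 0.00033 and 0.00113, adjusted 0.00308 and 0.0106), but r was 0.51 without the 2 farthest pigs. C1QA was less tightly tied to the other chains of its own complex than to CD68, with r = 0.67 for C1QC and 0.66 for C1QB, although these differences between correlations were not tested.

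CLEC4F was tied to C1QB (r = 0.65), CD68 (r = 0.63) and C1QC (r = 0.59), and VSIG4 to C1QC (r = 0.68), each with an adjusted permutation p between 0.0201 and 0.0396 over the 28 pairs. Within diets these values were 0.73, 0.64, 0.61 and 0.72. Without the 2 farthest pigs of the first gene they were 0.42, 0.46, 0.30 and 0.47, so a good part of each rested on those pigs.

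Before diet means were removed, CD163 and MARCO stood aside from the rest. For CD163, r was 0.56 with C1QC and 0.51 with C1QB but 0.27 with C1QA and 0.08 with CLEC4F. None of the 7 pairs of CD163 passed the adjusted threshold in these values. MARCO had r between 0.04 and 0.32 with the other 7 members, and none of its pairs passed either. With diet means removed, CD163 and C1QC had r = 0.61 and passed (permutation p within diets 0.00794, adjusted 0.0222). The other pairs of CD163 did not pass. Among them, CD163 and MARCO went from r = 0.07 to r = 0.60 (permutation p within diets 0.0348, adjusted 0.0609). Coconut oil pig 2 was the highest of its diet for both genes, at 167 and 51.9 CPM. A value within diets without that pig is not given here. The log2 fold changes of CD163 and MARCO for group B against R were 0.79 and -0.55.

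**Figure D3:**
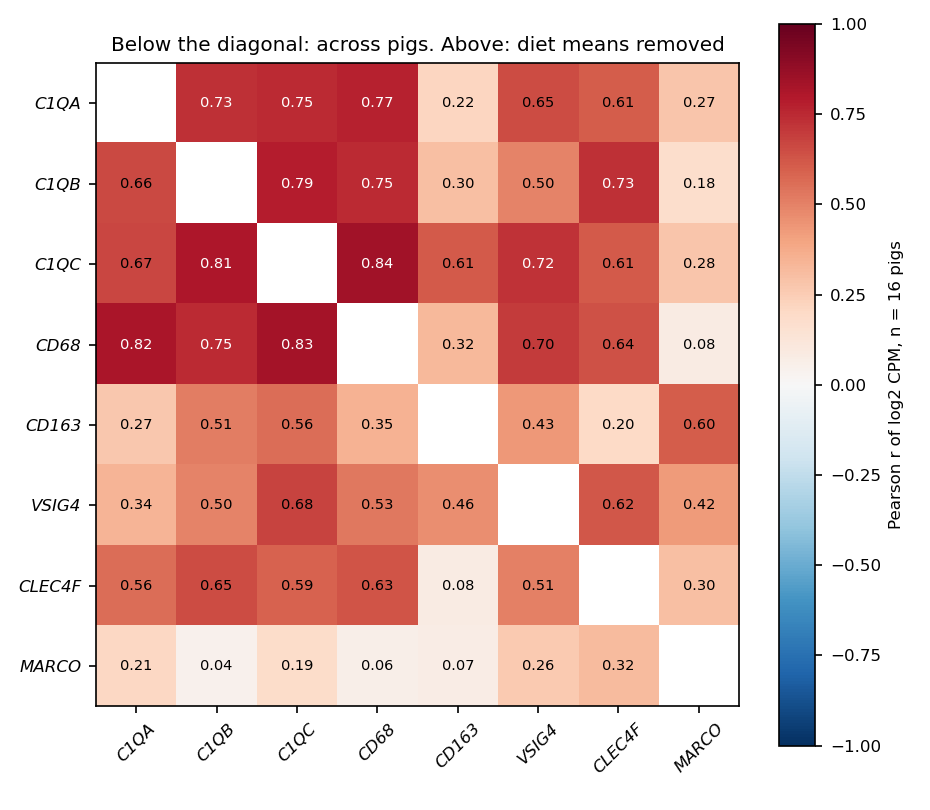
Pearson r of log2 CPM for each pair of the 8 marker genes over 16 pigs, below the diagonal as measured and above it with the mean of each diet removed, on a colour scale from -1 to 1. The C1q chains and CD68 form a block of r from 0.66 to 0.83 below the diagonal, and the row of MARCO holds values from 0.04 to 0.32.

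Ranked among all 6657 genes by their r with a given member, CD68 stood at place 3 for C1QC and at place 10 for C1QA, and C1QC at place 4 for both C1QB and CD68. Of the other 7 members, 6 were in the top 5% of genes for C1QB and for C1QC, 5 for CD68, VSIG4 and CLEC4F, 4 for C1QA, 1 for CD163 and 0 for MARCO. Among genes with a symbol, those most like C1QA over the pigs were GNMT (r = 0.94), PDCD4 (0.90) and GLOD5 (0.88), and those most like CD163 were JMJD6 (0.84), IARS1 (0.83) and TLR2 (0.82). For C1QC they were CYP2D6 (0.88), CD68 (0.83) and U2AF2 (0.81), for C1QB UBAP2L (0.86), C1QC (0.81) and OGFOD1 (0.81), and for CD68 U2AF2 (0.86), NCSTN (0.86) and C1QC (0.83). GNMT, the glycine N-methyltransferase, and CYP2D6 are enzymes known from hepatocytes, U2AF2 is a splicing factor and NCSTN a subunit of gamma-secretase. VSIG4 was nearest to STEEP1 (0.78), F12 (0.77) and DHRS1 (0.75), CLEC4F to FAF1 (0.83), ABCG8 (0.81) and CCDC124 (0.81), and MARCO to CIAO2A (0.77), ABTB2 (0.74) and CUL4B (0.74). Identifiers without a symbol were ranked but are not named, so CD68 comes second here for C1QC though it stood at place 3. These genes were picked for their high values over 16 shared libraries and are given with no test. Without beef tallow pig 3, r fell to 0.68 for OGFOD1 with C1QB and to 0.70 for U2AF2 with C1QC. It was 0.91 for GNMT with C1QA and rose to 0.80 for DHRS1 with VSIG4. The ranks are given with all 16 pigs only.

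Neither depth nor alignment moved with the members past adjustment. Over 16 relations of the 8 genes with the reads on genes and with the share of reads with several alignments, Pearson's r ran from -0.11 to 0.49, and the smallest adjusted permutation p was 0.301 for r and 0.353 for rho.

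A wider list of 36 macrophage genes, of which 29 matched and 16 to 18 had enough reads to be tested in a pair of diets, held no gene past the adjusted threshold by edgeR in any pair. For group B against R, 8 of its genes were higher and 8 lower, with a median log2 fold change of -0.02. Of these 16 genes, 3 had an unadjusted p below 0.05 by edgeR, as had 947 of all 6318 genes tested. For group C against B, 12 of its 18 tested genes were lower and 6 higher (median -0.21), where 50.4% of all genes were lower. For group C against R, 10 of 16 were lower and 6 higher (median -0.02), where 50.1% of all genes were lower. TLR2, the receptor for bacterial lipoproteins, was at 14.4 ± 7.95, 28.8 ± 5.87 and 12.6 ± 2.67 CPM in groups R, B and C (SD, n = 5, 5 and 6). Its log2 fold change was 1.01 for group B against R (standard error 0.32, edgeR adjusted p = 0.136) and -1.21 for group C against B (standard error 0.23, edgeR adjusted p = 0.0668). MRC1, the mannose receptor, was at 141 ± 25.9, 206 ± 33.7 and 206 ± 34.8 CPM in groups R, B and C, with log2 fold changes against group R of 0.55 in group B and 0.55 in group C (edgeR adjusted p = 0.150 and 0.169). The summed level of the 29 genes ran from 2349 to 3371 CPM in group R, from 2283 to 2757 in group B and from 2163 to 2836 in group C, and these 3 ranges overlapped.

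Chosen after the values were seen, the remaining genes of that list with an unadjusted p below 0.05 in a pair of diets were LGMN, a lysosomal protease, and TIMD4, the receptor for phosphatidylserine on resident macrophages. TIMD4 was at 54.6 ± 19, 50.6 ± 19.8 and 34.4 ± 5.61 CPM in groups R, B and C, the lowest in group C as for CD68, with a log2 fold change of -0.68 for group C against R (standard error 0.21, edgeR adjusted p = 0.195). LGMN was at -1.15 for group B against R and 0.89 for group C against B (standard errors 0.38 and 0.40, edgeR adjusted p = 0.153 and 0.423). Over all pigs LGMN ran from 43.5 to 619 CPM with a mean of 412, so its lowest pig lay far below the mean. Whether these differences rest on that pig was not tested, and no value of LGMN without it is given here.

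Of 17 ligands and partners of the members, such as the C1 inhibitor SERPING1, the hemopexin and heme oxygenase genes and the growth factor CSF1, 13 matched, 11 were tested and none passed by edgeR. JCHAIN, the joining chain of polymeric IgM, had a log2 fold change of -1.26 for group C against R (edgeR adjusted p = 0.118), and CALR, the calreticulin that C1q binds, one of -0.46 for group C against B (edgeR adjusted p = 0.318). IL34, a ligand of CSF1R, had no read in any pig, and CSF1, its other ligand, a mean of 12 reads.

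Between pairs of diets, the markers of other liver cells gave 2 calls, both for group B against R, and neither call was stable. LYVE1, a hyaluronan receptor of sinusoidal endothelium, was at 32.8 ± 6.54, 60.3 ± 11.2 and 59.0 ± 18.6 CPM in groups R, B and C (SD, n = 5, 5 and 6), with a log2 fold change of 0.88 for group B against R (standard error 0.20, edgeR adjusted p = 0.0495). TTR, the hepatocyte carrier of thyroid hormone and retinol, was lower in group B, at 3741 ± 619 CPM against 6425 ± 947 in group R (log2 fold change -0.78, standard error 0.17, edgeR adjusted p = 0.0426). When a pig was left out, each of the 2 calls was kept in 2 of 10 fits, with adjusted p-values up to 0.141 for LYVE1 and 0.111 for TTR, and over the other alternatives LYVE1 kept its call in 4 of 8 and TTR in 5 of 8. In the test of any diet, CPS1, the first enzyme of the urea cycle, named here after its values were seen, was the 1 gene of these lists that passed (edgeR adjusted p = 0.0461). The other 7 of 8 tested endothelial genes and the other 8 of 9 tested hepatocyte genes did not pass for group B against R, and the 11 matched endothelial genes summed to between 374 and 567 CPM in group R, between 435 and 561 in group B and between 431 and 513 in group C. Of the 8 matched monocyte and neutrophil genes, CX3CR1 was the 1 tested, at a log2 fold change of 0.07 for group B against R, MPO had no read, and the 8 summed to between 40.1 and 79.5 CPM in group R and between 35.8 and 74.8 in group B. The part of these cells in the higher CD163 of group B was not tested.

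Lists for stellate cells, T and NK cells, B cells, dendritic cells, erythroid cells, cholangiocytes and adipocytes held no gene past the adjusted threshold of edgeR in any pair of diets. In them LRAT and ACTA2, genes of stellate cells and of contractile cells, had log2 fold changes of -0.77 and 1.42 for group B against R (edgeR adjusted p = 0.192 and 0.224). CCL5, CD2, IRF8, HBM and HBB were between -0.58 and 0.24 in that comparison, with edgeR adjusted p-values of 0.641 to 0.999, and SPP1, a gene of bile duct cells, had too few reads for the pairs of diets.

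**Figure D4:**
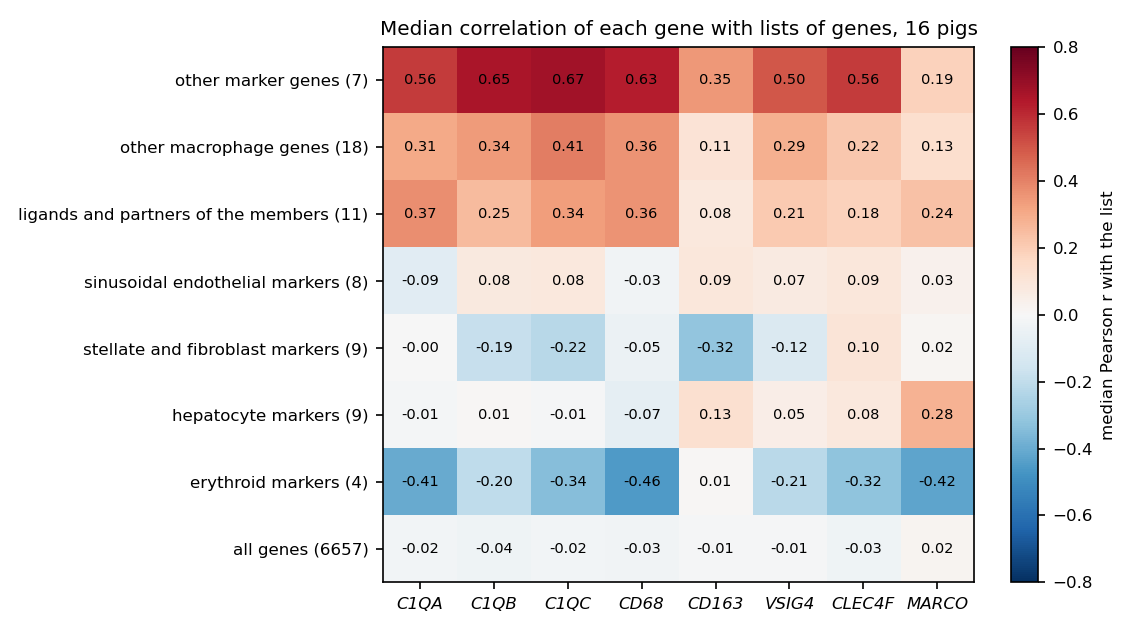
Median Pearson r of each marker gene (columns) with the genes of each list (rows, number of genes in brackets) over 16 pigs, on a colour scale from -0.8 to 0.8. The values with the other marker genes run from 0.19 to 0.67, those with the 18 other macrophage genes from 0.11 to 0.41, and those with all genes lie within 0.04 of 0.

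Over the pigs, the members followed each other more closely than they followed the wider macrophage list. The median r with the other members was highest for C1QC, at 0.67, followed by C1QB at 0.65 and CD68 at 0.63, and lowest for MARCO, at 0.19. With the 18 other macrophage genes it was 0.41 for C1QC, 0.36 for CD68, 0.11 for CD163 and 0.13 for MARCO. With the 8 endothelial markers it lay between -0.09 and 0.09, and with the 9 hepatocyte markers between -0.07 and 0.28, the highest for MARCO. The 4 erythroid genes ran against most members, from -0.46 for CD68 to 0.01 for CD163. These medians are descriptions over shared libraries, and no test was made of them.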

How the data were processed

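One liver library per pig was analysed for 16 pigs, grouped by the diet in the labels. The authors prepared 3′ mRNA libraries (Lexogen QuantSeq FWD), used FLEXBAR for trimming, TopHat for mapping to Sscrofa11.1 and HTSeq with Ensembl annotation 96 for counting, and deposited whole-number counts without normalization. Reads with several alignments were counted on no gene. The 5 tallies of unassigned reads were kept out of library sizes and tests; the remaining 42.8% to 55.1% of tallied reads lay on genes.

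Symbols were matched to 14857 of 25880 identifiers, and positions are RefSeq's for the same assembly, matched by symbol. No 2 of the 120 pairs of libraries were identical. Counts were tested with edgeR 4.0.16 (R 4.3.3): TMM, filterByExpr (minimum count 10, minimum total 15), quasi-likelihood F test over all genes, Benjamini-Hochberg threshold 0.05, no fold threshold, no covariates for pairs of diets and diet as covariate for sex. Standard errors are the log2 fold change over the square root of F. CPM use TMM library sizes. Correlations used log2 CPM (prior count 2) for genes with a mean of at least 10 reads, with two-sided permutation p (100000 resamples).

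The genes named are the 10 members, genes of the marker lists past the threshold in a pair of diets (otherwise the 2 with the smallest p for any diet), and the 3 genes with a symbol nearest to each member; others are said to be chosen after their values were seen. Members and lists were chosen with earlier results of these data known. Alternatives were DESeq2 1.42.0, RLE, other filters, other samples or covariates, a replicate block, each pig left out, thinned counts and prior count 0.5. The methods were tested on simulated data. Sequences were not used here.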

Additional observations from a re-analysis of the deposited data

Results flagged for a closer look

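In 24 groups of 8 genes and 3 diets, 2 pigs lay far from the rest of their group by Dixon's criterion at the 95% level, which chance meets in about 1 of 20 groups. C1QA in beef tallow pig 3 was 952.16 CPM, where the next pig of that diet was at 554 CPM, a gap of 0.758 of the group's range. The same pig was the highest of all 16 for 5 of the 8 genes. MARCO in coconut oil pig 2 was 51.92 CPM, where the next pig of that diet was at 21.7 CPM, a gap of 0.773 of the range. That pig was the highest of all for no other member, but it was the highest of its diet for CD163 and C1QA, at 167 and 421 CPM. In it, 19% of the reads had several alignments, against 33.2% in beef tallow pig 3. The cause of either value was not tested.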

How the results depend on the processing

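Of the genes' log2 fold changes, 34 were followed over 652 alternatives, and 603 kept their direction and their side of the threshold, 33 lost a call, 2 gained one and 14 turned in direction. The number of members called for group B against R, 1 in the fit reported, was 0 with the replicate block, 0 with thinned counts and 0 to 1 when a pig was left out. The adjusted p of CD163 ran from 0.0285 to 0.104 over the pigs left out and from 0.00165 to 0.0887 over the other alternatives. For any diet, 1 member (CD163) passed with at least 10 reads in every pig, 2 (CD163, C1QA) with DESeq2 and 2 without a filter, and 0 to 1 with a pig left out. DESeq2 gave 1 (C1QA) for group C against B, and no filter gave 1 (CLEC4F) between the sexes. The calls for LYVE1 and TTR were kept in 4 and 5 of 8 alternatives and each in 2 of 10 fits without a pig. The number of correlated pairs, 10, was 3 without beef tallow pig 3, 6 without rapeseed oil pig 5 and up to 13 without another pig, and it was 15 within diets.

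The direction turned for 9 of the 34, none of them past the threshold. CLEC4F for group B against R was 0.024 with sex as a covariate and ran from -0.44 to 0.048 over pigs left out, and C1QB for group C against R was 0.085 with the replicate block and ran from -0.31 to 0.080. Over pigs left out, C1QA ran from -0.10 to 0.25 and CD68 from -0.079 to 0.31 for group B against R, and C1QC from -0.29 to 0.010 for group C against R. For group C against B, MARCO ran from -0.15 to 0.39, VSIG4 from -0.25 to 0.10 and CLEC4F from -0.46 to 0.10, and MARCO ran from -0.49 to 0.0088 between the sexes. The causes were not tested.

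Replicate numbers did not pair the pigs: over 15 pairs of pigs with the same number in 2 diets, correlations of deviations ran from -0.26 to 0.14, 3 were over 0.1 and 4 were the best match. The block moved the genes called for group B against R from 70 to 35 and for any diet from 49 to 26. With DESeq2, 190, 93, 46 and 220 genes were called for group B against R, C against R, C against B and any diet, where edgeR called 70, 9, 4 and 49. Without a filter the counts were 190, 82, 22 and 190, and 41 between the sexes in place of 5. At a median of 1018321.5 reads on genes, MARCO, VSIG4, CLEC4F and CD68 rest on 26.7 to 39.4 reads per pig, which limits what can be seen in them, and CSF1R, with 7 reads in all, was tested only without the filter, where it did not pass in any comparison.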
